A study of Mus musculus with 4 samples.

Results

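The interleukin-1 (IL-1) family is described here through 10 genes of mouse liver cells. They are the ligand genes Il1a, Il1b, Il33 and Il18, the receptor antagonist gene Il1rn, the IL-18 binding protein gene Il18bp, the decoy receptor gene Il1r2, and the receptor genes Il1r1, Il1rap and Il1rl1. The members were chosen by name, and each was found by its Ensembl identifier, 10 of the 41128 identifiers in the count table and 10 of the 21640 genes with enough counts to be compared.

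The cells came from livers of C57BL/6 mice fed so as to model alcoholic hepatitis. The mice took 40% of their calories freely as a high cholesterol fat diet and 60% as an alcohol liquid diet fed into the stomach, with a binge every week. After collagenase digestion, hepatocytes were spun off at low speed and CD45+ leukocytes were held back on magnetic beads, which left the presorted CD45- cells. Sorting on Prom1 (CD133, a surface protein of progenitor-like and duct cells), CD49f (integrin alpha 6, a laminin receptor) and CD45 (the leukocyte phosphatase encoded by Ptprc) then gave Prom1+CD49f+CD45- cells, cells that were Prom1-CD49f+CD45-, and cells labelled Prom1+CD49f+CD45+. With presorted CD45- cells as the starting mixture there were 4 libraries. All share the diet, the alcohol and the strain, and no library from untreated mice was analysed here. Each is a pool of RNA from 2 mice and the only library of its group, so no difference below has a replicate check, a test or a p-value.

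IL-1 family cytokines are alarm and inflammatory signals. IL-1 alpha (Il1a) and IL-33 (Il33) are held in cells and act when released by damaged or stressed cells, whereas IL-1 beta (Il1b) and IL-18 (Il18) are made as precursors that caspase-1 cuts within inflammasomes. IL-1 alpha and IL-1 beta bind the receptor encoded by Il1r1, which recruits the shared coreceptor encoded by Il1rap and signals through the adaptor MyD88 to NF-kappaB. The receptor antagonist (Il1rn) occupies the same receptor without a signal, the decoy receptor (Il1r2) binds IL-1 without signalling, and IL-18 binding protein (Il18bp) neutralises IL-18. IL-33 acts through ST2, encoded by Il1rl1. In mouse models of alcoholic liver disease IL-1 signalling promotes inflammation, and recombinant receptor antagonist has been used to block it.

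Summed counts were 30239484 in Prom1+CD49f+CD45- cells, 14670239 in Prom1-CD49f+CD45- cells, 23069940 in the labelled Prom1+CD49f+CD45+ library and 52293939 in presorted cells. Levels are CPM, a gene's counts over the library's summed counts on a common scale, corrected by TMM (a trimmed mean of log ratios between libraries), with an exact 95% Poisson interval, and ratios carry an exact 95% binomial interval. A gene is called higher or lower only where the whole interval of its ratio lies beyond 2-fold. Intervals cover counting error only, and not the spread between mice or libraries. Amplified reads without molecular identifiers are not independent molecules, so even the counting error may be understated. Prom1 itself was at 355 CPM in Prom1+CD49f+CD45- cells, 31.1 CPM in Prom1-CD49f+CD45- cells, 11.4 CPM in the labelled Prom1+CD49f+CD45+ library and 67.1 CPM in presorted cells. Ptprc was at 6.33 CPM in Prom1+CD49f+CD45- cells, 3.60 CPM in Prom1-CD49f+CD45- cells, 14.5 CPM in the labelled library and 21.0 CPM in presorted cells. The labelled Prom1+CD49f+CD45+ library thus had the lowest Prom1 level of the 4 and less Ptprc than the presorted library, which goes against its label, and directions drawn from it are those of the labelled library only. The presorted library, taken from a column named only CD45, had the highest Ptprc of the 4 although its cells were depleted of CD45+ cells, which goes against its label as well. Every ratio to presorted cells below is a ratio to that library as it stands, leukocyte RNA included. Itga6, the gene of CD49f, was at 72.9 CPM in Prom1+CD49f+CD45- cells and 50.5 CPM in Prom1-CD49f+CD45- cells. It was at 127 CPM in the labelled library and 110 CPM in presorted cells. Both CD49f+CD45- libraries were thus below presorted cells although sorted for CD49f, which goes against that part of their labels. Of them, only the Prom1-CD49f+CD45- library was called lower (ratio 0.458, 0.422 to 0.495). The libraries also differed in background: among 1707 chemosensory receptor genes, a class not expected in liver, the 95th percentile was 0.846 CPM in Prom1+CD49f+CD45- cells, 0.353 CPM in Prom1-CD49f+CD45- cells, 1.09 CPM in the labelled library and 0.0450 CPM in presorted cells.

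Because Il1a and Il33 were low where Il1rn was high, the 250 bases upstream of their RefSeq starts (GRCm38.p6) are shown, save for the third Il1rn start, whose window overlaps the second. Capitals mark matches to TGANTCA (the AP-1 motif) and TATAAA (the TATA motif), and the NF-kappaB consensus was also searched, each on both strands. The window of Il1a lies at chr2:129309973-129310222 on the minus strand. Those of Il1rn lie at chr2:24336610-24336859 and chr2:24345041-24345290 on the plus strand, before the gene's first start and its second start. Those of Il33 lie at chr19:29924863-29925112 and chr19:29945540-29945789 on the plus strand.
Il1a: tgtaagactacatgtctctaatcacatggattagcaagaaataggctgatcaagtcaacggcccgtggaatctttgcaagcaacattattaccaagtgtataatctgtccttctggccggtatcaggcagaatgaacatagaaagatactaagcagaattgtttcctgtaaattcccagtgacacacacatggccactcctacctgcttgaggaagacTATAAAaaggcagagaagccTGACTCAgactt
Il1rn, first start: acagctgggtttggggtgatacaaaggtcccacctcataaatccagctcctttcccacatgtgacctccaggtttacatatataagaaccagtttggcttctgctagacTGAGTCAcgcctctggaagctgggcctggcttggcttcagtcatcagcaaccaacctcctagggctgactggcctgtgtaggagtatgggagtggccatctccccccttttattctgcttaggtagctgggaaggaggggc
Il1rn, second start: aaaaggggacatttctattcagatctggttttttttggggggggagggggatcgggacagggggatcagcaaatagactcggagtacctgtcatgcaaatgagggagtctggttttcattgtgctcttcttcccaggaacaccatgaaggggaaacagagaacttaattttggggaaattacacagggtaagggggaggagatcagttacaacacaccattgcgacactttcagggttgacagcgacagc
Il33, first start: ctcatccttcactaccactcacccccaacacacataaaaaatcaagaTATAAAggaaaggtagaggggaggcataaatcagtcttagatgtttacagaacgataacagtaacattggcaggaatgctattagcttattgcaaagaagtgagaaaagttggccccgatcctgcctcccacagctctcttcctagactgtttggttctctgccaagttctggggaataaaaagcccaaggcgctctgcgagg
Il33, second start: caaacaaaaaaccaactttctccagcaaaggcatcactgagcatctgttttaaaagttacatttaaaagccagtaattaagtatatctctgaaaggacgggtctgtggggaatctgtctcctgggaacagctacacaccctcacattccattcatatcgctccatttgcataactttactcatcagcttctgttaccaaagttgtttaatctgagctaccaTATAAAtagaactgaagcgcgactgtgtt
In the Il1a window the AP-1 match began 12 bases and the TATA match 32 bases before the start. The first Il1rn window had an AP-1 match 141 bases before the start, and the second had no match. The Il33 windows had a TATA match 203 bases before the first start and 29 bases before the second. No NF-kappaB match lay in these 5 windows. Of 32851 windows of the same length in the mouse table, 6.75% held the AP-1 motif, 12.4% TATAAA and 7.25% the NF-kappaB consensus. A match was thus present in a minority of windows, and here it is only a description. Which starts were used in these cells was not tested.

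Il1a, the gene of IL-1 alpha (ENSMUSG00000027399, mm10, chr2:129299610-129309972, minus strand), was low in 1 library and abundant in the other 3. Its level was 2.68 CPM (2.16 to 3.29) in Prom1+CD49f+CD45- cells, 286 CPM (278 to 295) in Prom1-CD49f+CD45- cells, 382 CPM (375 to 390) in the labelled Prom1+CD49f+CD45+ library and 193 CPM (189 to 197) in presorted cells. None of these intervals overlapped. Il1a in Prom1+CD49f+CD45- cells was 107-fold lower than in Prom1-CD49f+CD45- cells (86.8 to 133), 142-fold lower than in the labelled library (116 to 177) and 71.8-fold lower than in presorted cells (58.4 to 89.1). The Prom1-CD49f+CD45- library was 1.49-fold above the presorted one (1.43 to 1.54) and the labelled library 1.98-fold above it (1.93 to 2.04), neither past the call. Il1a shares 222 exon bases with Gm14023 on the opposite strand, which had 39 counts in Prom1+CD49f+CD45- cells, 121 counts in Prom1-CD49f+CD45- cells, 244 counts in the labelled library and 123 counts in presorted cells. Il1a itself had 92 counts in Prom1+CD49f+CD45- cells, 4056 counts in Prom1-CD49f+CD45- cells, 9486 counts in the labelled library and 8561 counts in presorted cells.

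Il1b, the gene of IL-1 beta (ENSMUSG00000027398, chr2:129364570-129371139, minus strand), was low in every library. It had 6 counts (0.175 CPM, 0.0642 to 0.381) in Prom1+CD49f+CD45- cells, 3 counts (0.212 CPM, 0.0437 to 0.619) in Prom1-CD49f+CD45- cells, 25 counts (1.01 CPM, 0.652 to 1.49) in the labelled Prom1+CD49f+CD45+ library and 186 counts (4.19 CPM, 3.61 to 4.83) in presorted cells. In the 3 sorted libraries this was below the chemosensory 95th percentile of the same library, so only the presorted level stood above background. Against presorted cells it was called lower in Prom1+CD49f+CD45- cells (23.9-fold, 10.8 to 66.0), in Prom1-CD49f+CD45- cells (19.8-fold, 6.66 to 96.7) and in the labelled library (4.16-fold, 2.73 to 6.59). The last of these calls was lost with the authors' normalized values, which have 1 added (1.89 against 3.75). The Prom1+CD49f+CD45- to Prom1-CD49f+CD45- ratio of 0.826 spanned 0.176 to 5.11, so a difference between them was not detectable at this depth. Il1b and its antisense gene Il1bos share 25 exon bases, and Il1bos had 6 counts in Prom1+CD49f+CD45- cells, 6 counts in Prom1-CD49f+CD45- cells, 32 counts in the labelled library and 32 counts in presorted cells.

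Il33 (ENSMUSG00000024810, chr19:29925114-29960718, plus strand), the nuclear alarm cytokine, was highest in Prom1-CD49f+CD45- cells. Levels were 5.16 CPM (4.43 to 5.98) in Prom1+CD49f+CD45- cells, 175 CPM (168 to 182) in Prom1-CD49f+CD45- cells, 66.9 CPM (63.7 to 70.2) in the labelled Prom1+CD49f+CD45+ library and 57.7 CPM (55.5 to 60.0) in presorted cells, with no overlap of intervals. Prom1+CD49f+CD45- cells were 33.9-fold lower than Prom1-CD49f+CD45- cells (29.1 to 39.8), 12.9-fold lower than the labelled library (11.1 to 15.2) and 11.2-fold lower than presorted cells (9.59 to 13.1). Prom1-CD49f+CD45- cells were 3.04-fold above presorted cells (2.87 to 3.21) and 2.62-fold above the labelled library (2.46 to 2.79).

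Il18 (ENSMUSG00000039217, chr9:50554827-50581840, plus strand) was the most abundant of the 4 ligand genes per kb of exon in Prom1+CD49f+CD45- cells, at 12.3 CPM per kb beside 1.79 for Il33. It was at 12.7 CPM (11.5 to 13.9) in Prom1+CD49f+CD45- cells, 11.7 CPM (9.94 to 13.6) in Prom1-CD49f+CD45- cells, 0.403 CPM (0.193 to 0.741) in the labelled Prom1+CD49f+CD45+ library and 3.96 CPM (3.40 to 4.59) in presorted cells. The intervals of the Prom1+CD49f+CD45- and Prom1-CD49f+CD45- libraries overlapped, with a ratio of 1.09 (0.906 to 1.31), and the labelled library was below its chemosensory 95th percentile. Against presorted cells Il18 was 3.20-fold higher in Prom1+CD49f+CD45- cells (2.68 to 3.83) and 2.94-fold higher in Prom1-CD49f+CD45- cells (2.36 to 3.66), but 9.83-fold lower in the labelled library (5.22 to 20.9). With the trend of ratios on transcript length removed, the first ratio was 1.98 and the second 1.77, and both calls were lost.

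Il1rn (ENSMUSG00000026981, chr2:24336853-24351494, plus strand), the receptor antagonist gene, was highest where Il1a was lowest and lowest where Il1a was highest. Its level was 193 CPM (188 to 198) in Prom1+CD49f+CD45- cells, 91.2 CPM (86.3 to 96.3) in Prom1-CD49f+CD45- cells, 3.55 CPM (2.84 to 4.37) in the labelled Prom1+CD49f+CD45+ library and 59.8 CPM (57.5 to 62.1) in presorted cells. No intervals overlapped. Il1rn in Prom1+CD49f+CD45- cells was 54.5-fold higher than in the labelled library (44.1 to 68.0) and 3.23-fold higher than in presorted cells (3.09 to 3.38). The ratio to Prom1-CD49f+CD45- cells was 2.12 (1.99 to 2.25), just short of the call, and 2.49 with a call when libraries were scaled by their totals. The labelled library was 16.9-fold below presorted cells (13.6 to 21.1).

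Il18bp (ENSMUSG00000070427, chr7:102014885-102018690, minus strand), the gene of the protein that neutralises IL-18, was lowest where Il1rn was highest. It was at 6.94 CPM (6.09 to 7.88) in Prom1+CD49f+CD45- cells, 46.8 CPM (43.3 to 50.5) in Prom1-CD49f+CD45- cells, 16.5 CPM (14.9 to 18.2) in the labelled Prom1+CD49f+CD45+ library and 34.9 CPM (33.2 to 36.7) in presorted cells, all apart. Prom1+CD49f+CD45- cells were 6.74-fold lower than Prom1-CD49f+CD45- cells (5.81 to 7.85) and 5.02-fold lower than presorted cells (4.38 to 5.78). Against the labelled library they were 2.37-fold lower (2.02 to 2.80), a call lost with DESeq2 size factors, library totals or the length trend. Il18bp shares 80 exon bases with Numa1 on the opposite strand, which had 5802 counts in Prom1+CD49f+CD45- cells, 831 counts in Prom1-CD49f+CD45- cells, 4777 counts in the labelled library and 8649 counts in presorted cells. Whether counting used strand is not known from the sources used here.

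Il1r2 (ENSMUSG00000026073, chr1:40074079-40125231, plus strand), the decoy receptor gene, was close to undetected. It had 5 counts (0.146 CPM) in Prom1+CD49f+CD45- cells, 1 count (0.0706 CPM) in Prom1-CD49f+CD45- cells, 19 counts (0.765 CPM) in the labelled Prom1+CD49f+CD45+ library and 36 counts (0.810 CPM) in presorted cells. Only the presorted level exceeded its chemosensory 95th percentile. Prom1+CD49f+CD45- cells were 5.55-fold lower than presorted cells (2.17 to 18.1), and the call was lost with library totals (ratio 0.240) and with the authors' normalized values, which have 1 added (0.725).

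Il1r1 (ENSMUSG00000026072, chr1:40225080-40317257, plus strand), the signalling IL-1 receptor gene, was present in every library at 1021 or more counts. Its level was 37.3 CPM (35.3 to 39.5) in Prom1+CD49f+CD45- cells, 72.1 CPM (67.8 to 76.7) in Prom1-CD49f+CD45- cells, 114 CPM (110 to 118) in the labelled Prom1+CD49f+CD45+ library and 89.9 CPM (87.2 to 92.8) in presorted cells. No intervals overlapped. Prom1+CD49f+CD45- cells were 3.05-fold lower than the labelled library (2.85 to 3.26) and 2.41-fold lower than presorted cells (2.26 to 2.57), the second ratio being 0.554 and not called with library totals. The ratio to Prom1-CD49f+CD45- cells was 0.518 (0.477 to 0.563), uncalled, and was called lower with DESeq2 size factors (0.460), the authors' values (0.470) and the length trend removed (0.346).

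Il1rap (ENSMUSG00000022514, chr16:26581704-26730117, plus strand), the coreceptor gene shared by IL-1 and IL-33 receptors, was highest in presorted cells. It was at 18.2 CPM (16.8 to 19.7) in Prom1+CD49f+CD45- cells, 9.96 CPM (8.38 to 11.7) in Prom1-CD49f+CD45- cells, 10.8 CPM (9.58 to 12.2) in the labelled Prom1+CD49f+CD45+ library and 34.5 CPM (32.8 to 36.2) in presorted cells. The Prom1-CD49f+CD45- and labelled libraries overlapped. Against presorted cells it was 3.46-fold lower in Prom1-CD49f+CD45- cells (2.91 to 4.14) and 3.18-fold lower in the labelled library (2.79 to 3.64), while the 1.90-fold lower value of Prom1+CD49f+CD45- cells was not called. The antisense gene Gm20319, with which Il1rap shares 552 exon bases, had 14 counts in Prom1+CD49f+CD45- cells, 10 counts in Prom1-CD49f+CD45- cells, 6 counts in the labelled library and 272 counts in presorted cells.

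Il1rl1 (ENSMUSG00000026069, chr1:40429570-40465415, plus strand), the gene of the IL-33 receptor ST2, had few counts. It had 44 counts (1.28 CPM, 0.933 to 1.72) in Prom1+CD49f+CD45- cells, 9 counts (0.636 CPM, 0.291 to 1.21) in Prom1-CD49f+CD45- cells, 54 counts (2.18 CPM, 1.63 to 2.84) in the labelled Prom1+CD49f+CD45+ library and 8 counts (0.180 CPM, 0.0777 to 0.355) in presorted cells. It was called higher than in presorted cells in Prom1+CD49f+CD45- cells (7.13-fold, 3.32 to 17.5) and in the labelled library (12.1-fold, 5.72 to 29.4). The first call was lost with the authors' normalized values, which have 1 added (1.98 against 1.13). In the 3 sorted libraries the CPM of Il1rl1 was above the chemosensory 95th percentile and not above the 99th, which was 1.43 CPM in Prom1+CD49f+CD45- cells, 1.20 CPM in Prom1-CD49f+CD45- cells and 2.18 CPM in the labelled library. The order of the 4 libraries was the one the chemosensory 95th percentile had. Of 445 chemosensory genes compared, 84.7% were called higher in Prom1+CD49f+CD45- cells and 85.6% in the labelled library than in presorted cells, and the part of that background in the Il1rl1 ratios was not tested.

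**Figure D1:**
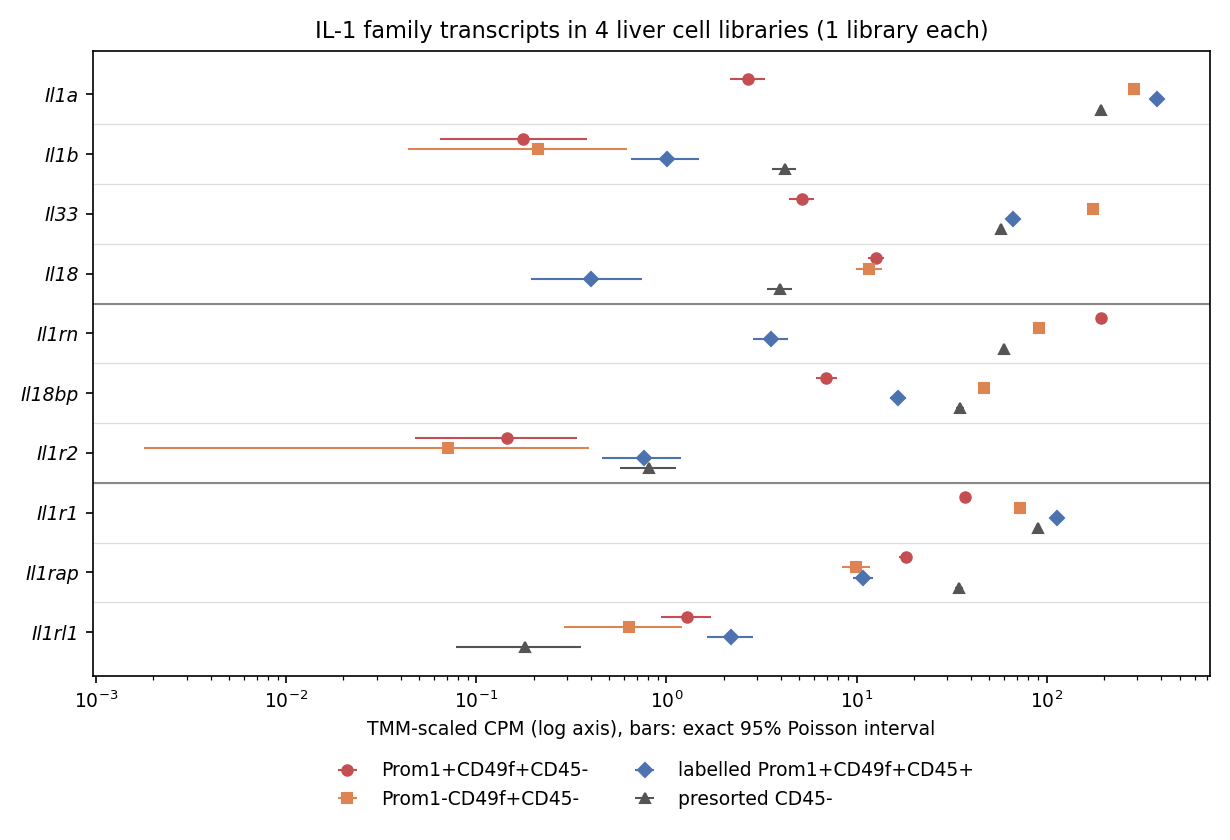
TMM-scaled CPM (log axis) of the 10 members in each of the 4 libraries, with exact 95% Poisson intervals as bars and 1 library a group; grey rules part ligands, inhibitors and receptors. Il1a sits at 2.68 CPM in the Prom1+CD49f+CD45- library and at 193 CPM or more in the rest, whereas Il1rn is highest there at 193 CPM.

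Over the 10 members, Prom1+CD49f+CD45- cells had 0 called higher and 3 called lower than Prom1-CD49f+CD45- cells, where 28.2% of all genes compared were called (15.5% higher, 12.7% lower). Against presorted cells, Prom1+CD49f+CD45- cells had 3 members higher and 6 lower, with 43.2% of all genes called (27.6% higher, 15.6% lower). Prom1-CD49f+CD45- cells had 2 higher and 2 lower than presorted cells, beside 23.9% of all genes (9.77% higher, 14.1% lower). The labelled library had 1 higher and 4 lower than presorted cells, beside 35.9% of all genes (23.8% higher, 12.1% lower). Against that labelled library, Prom1+CD49f+CD45- cells had 2 higher and 5 lower (25.6% of all genes called, 12.5% higher and 13.1% lower) and Prom1-CD49f+CD45- cells 4 higher and 0 lower (30.7%, with 13.0% higher and 17.7% lower). The median log2 ratio of the members was -0.13 for Prom1+CD49f+CD45- over Prom1-CD49f+CD45- cells, beside 0.39 over all genes, and -1.80 over presorted cells, beside 0.19. These comparisons share libraries and are not independent of each other.

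**Figure D2:**
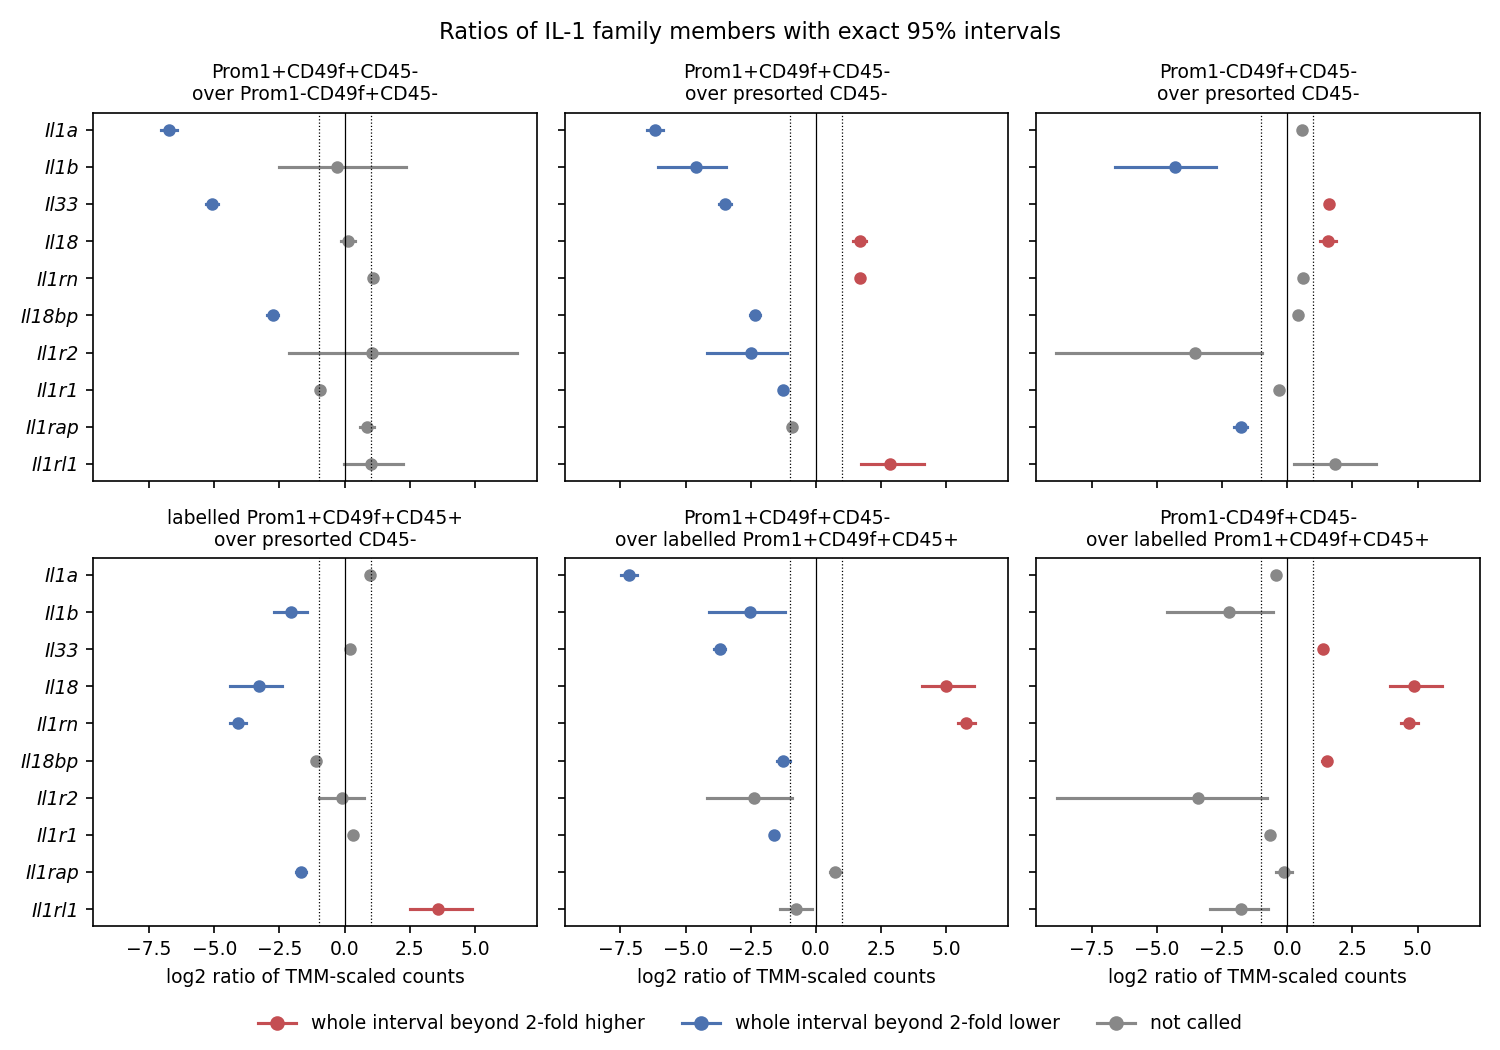
Log2 ratios of TMM-scaled counts for the 10 members in 6 comparisons, with exact 95% intervals; dotted lines mark 2-fold and colour marks a whole interval beyond it. Il1a and Il33 lie far to the left in each of the comparisons of Prom1+CD49f+CD45- cells, while Il1rn and Il18 lie to the right against presorted cells and the labelled library.

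The members made up 9515 counts in Prom1+CD49f+CD45- cells, 9832 in Prom1-CD49f+CD45- cells, 14848 in the labelled Prom1+CD49f+CD45+ library and 21267 in presorted cells. Il1rn took 69.5% of the family's counts in Prom1+CD49f+CD45- cells, 13.1% in Prom1-CD49f+CD45- cells, 0.593% in the labelled Prom1+CD49f+CD45+ library and 12.5% in presorted cells. Il1a took 0.967% in Prom1+CD49f+CD45- cells, 41.3% in Prom1-CD49f+CD45- cells, 63.9% in the labelled library and 40.3% in presorted cells. On counts per kilobase of exon, which is how levels of different genes are compared, Il1rn led in the Prom1+CD49f+CD45- library at 34.9 CPM per kb, followed by Il18 at 12.3 and Il1r1 at 5.87. Il1a led in the other libraries, at 145 CPM per kb in Prom1-CD49f+CD45- cells, 194 in the labelled library and 97.6 in presorted cells. The series title names a method that counts 3′ ends while the protocols name a whole-transcript kit, so whether division by length is due is unresolved. The same genes led on both scales.

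Within a library, ratios between members need no scaling between libraries. Il1rn counts stood to Il1a plus Il1b counts at 67.5 (55.3 to 83.3) in Prom1+CD49f+CD45- cells, 0.318 (0.299 to 0.339) in Prom1-CD49f+CD45- cells, 0.00925 (0.00741 to 0.0114) in the labelled Prom1+CD49f+CD45+ library and 0.304 (0.291 to 0.317) in presorted cells. Antagonist counts thus exceeded agonist counts in 1 library of 4, and the Prom1-CD49f+CD45- and presorted ratios overlapped. Per kb of exon the ratio was 24.0 in Prom1+CD49f+CD45- cells, 0.113 in Prom1-CD49f+CD45- cells, 0.00330 in the labelled library and 0.108 in presorted cells.

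Il18bp to Il18 ran in the opposite direction, at 0.548 (0.466 to 0.644) in Prom1+CD49f+CD45- cells, 4.02 (3.38 to 4.79) in Prom1-CD49f+CD45- cells, 40.9 (22.0 to 85.9) in the labelled Prom1+CD49f+CD45+ library and 8.81 (7.53 to 10.4) in presorted cells. The labelled value rests on 10 counts of Il18. Il33 to Il1rl1, ligand to receptor, was 4.02 (2.88 to 5.73) in Prom1+CD49f+CD45- cells, 276 (145 to 604) in Prom1-CD49f+CD45- cells, 30.7 (23.4 to 41.1) in the labelled Prom1+CD49f+CD45+ library and 321 (162 to 743) in presorted cells, with at most 54 counts of Il1rl1 in a library. Il1rl1 was not above the chemosensory 99th percentile in any sorted library, and the part of that background in this ratio was not tested. Il1r2 to Il1r1, decoy to signalling receptor, was small throughout, at 0.00391 in Prom1+CD49f+CD45- cells, 0.000979 in Prom1-CD49f+CD45- cells, 0.00672 in the labelled library and 0.00901 in presorted cells.

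**Figure D3:**
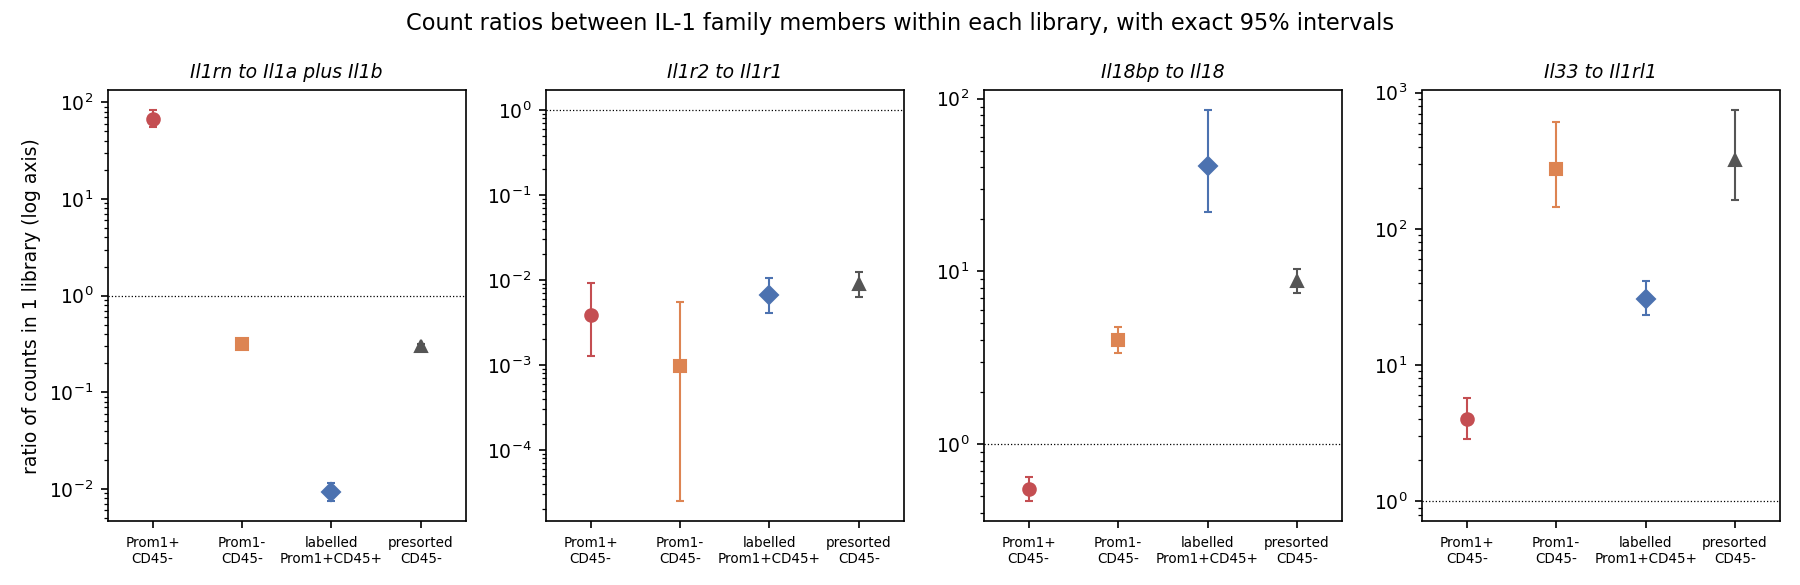
Count ratios between members within each library (log axes), with exact 95% intervals; the dotted line marks equal counts. Il1rn exceeds Il1a plus Il1b in the Prom1+CD49f+CD45- library only, at 67.5 against 0.318 or less, and Il18bp is below Il18 in that library only.

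Markers of other cell types moved with several members. All 8 cholangiocyte (bile duct) markers, among them Krt19, Epcam and Spp1, were called higher in Prom1+CD49f+CD45- cells than in presorted cells, and none was at 0. Their summed level, mostly Spp1, was 21921 CPM in Prom1+CD49f+CD45- cells, 8975 CPM in Prom1-CD49f+CD45- cells, 348 CPM in the labelled library and 3466 CPM in presorted cells. Il1rn had the order of libraries of this sum, and so did Il18, whose Prom1+CD49f+CD45- and Prom1-CD49f+CD45- intervals overlapped. All 8 sinusoidal and all 8 vascular endothelial markers were called lower in Prom1+CD49f+CD45- than in Prom1-CD49f+CD45- cells, and none was at 0 in any library. The sinusoidal list summed to 128 CPM in Prom1+CD49f+CD45- cells, 4952 CPM in Prom1-CD49f+CD45- cells, 17447 CPM in the labelled library and 13030 CPM in presorted cells. The vascular list summed to 58.0 CPM in Prom1+CD49f+CD45- cells, 3826 CPM in Prom1-CD49f+CD45- cells, 2777 CPM in the labelled library and 2365 CPM in presorted cells, of which Plvap gave 1548 CPM and Vwf 618 CPM in Prom1-CD49f+CD45- cells. Il33 had the order of this sum, which Emcn and Sox17 alone of the 8 genes shared. Pecam1, Cdh5 and Eng were instead highest in the labelled library, at 362, 175 and 164 CPM in Prom1-CD49f+CD45- cells against 758, 231 and 1007 CPM in the labelled library. Lymphatic endothelial markers summed to 399 CPM in Prom1+CD49f+CD45- cells, 2815 CPM in Prom1-CD49f+CD45- cells, 1473 CPM in the labelled library and 1288 CPM in presorted cells. The sum had the order of Il33, but none of its 6 genes had that order alone. That sum was mostly Ccl21a in Prom1-CD49f+CD45- cells (2473 CPM) and mostly Flt4 in the labelled library (1447 CPM) and presorted cells (1167 CPM). In Prom1+CD49f+CD45- cells it was mostly Prox1 (345 CPM). Prox1 was highest there, against 35.7 CPM in Prom1-CD49f+CD45- cells, 7.69 CPM in the labelled library and 62.0 CPM in presorted cells. Il1a was highest and lowest in the same libraries as the sinusoidal list, but the libraries in between had opposite orders. Il1a was at 286 CPM in the Prom1-CD49f+CD45- library and 193 CPM in the presorted library, a ratio of 1.49 that was not called. The sinusoidal sum was 4952 CPM in the first of these libraries and 13030 CPM in the second. Of its 8 markers, 5 were called lower and 0 higher in the first library relative to the second. Hepatocyte markers summed to 4778 CPM in Prom1+CD49f+CD45- cells, 3987 CPM in Prom1-CD49f+CD45- cells, 419 CPM in the labelled library and 20354 CPM in presorted cells, and none was at 0. The sum, like Il1rap, was highest in presorted cells. All 8 were called lower in Prom1-CD49f+CD45- cells and in the labelled library than in presorted cells, as Il1rap was. In Prom1+CD49f+CD45- cells 7 of the 8 were also called lower than in presorted cells, whereas Il1rap was not called. Most of the sum in Prom1+CD49f+CD45- cells was Alb (3241 CPM). The Kupffer cell and macrophage list, given below, had the same numbers of calls against presorted cells. In a bulk library, fewer cells of a type and less RNA per cell cannot be told apart, and the part of cell mixture in these members was not tested.

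Neutrophil markers summed to 40.6 CPM in Prom1+CD49f+CD45- cells and 73.0 CPM in Prom1-CD49f+CD45- cells. They summed to 698 CPM in the labelled library and 1252 CPM in presorted cells, and Ly6g was at 0 in the Prom1+CD49f+CD45- library. Most of each sum was Mpo, save in the Prom1+CD49f+CD45- library, where Cxcr2 gave 29.3 CPM. Il1b was also highest in presorted cells, followed by the labelled library. Its Prom1+CD49f+CD45- and Prom1-CD49f+CD45- intervals overlapped, and only its presorted level stood above the chemosensory background. Kupffer cell and macrophage markers summed to 89.2 CPM in Prom1+CD49f+CD45- cells, 79.2 CPM in Prom1-CD49f+CD45- cells, 131 CPM in the labelled library and 828 CPM in presorted cells, and of 8 markers 7 were called lower in Prom1+CD49f+CD45- cells, and all 8 in Prom1-CD49f+CD45- cells and in the labelled library, than in presorted cells. Markers of mast cells and type 2 lymphoid cells, known bearers of ST2, summed to 6.65 CPM in Prom1+CD49f+CD45- cells, 42.5 CPM in Prom1-CD49f+CD45- cells, 626 CPM in the labelled library and 438 CPM in presorted cells. Of that sum Kit, also made by other cells, gave 4.06 CPM in Prom1+CD49f+CD45- cells, 41.2 CPM in Prom1-CD49f+CD45- cells, 622 CPM in the labelled library and 431 CPM in presorted cells, and Mcpt4, Il13 and Il5 were at or near 0. The part of leukocyte RNA in the members was not tested.

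**Figure D4:**
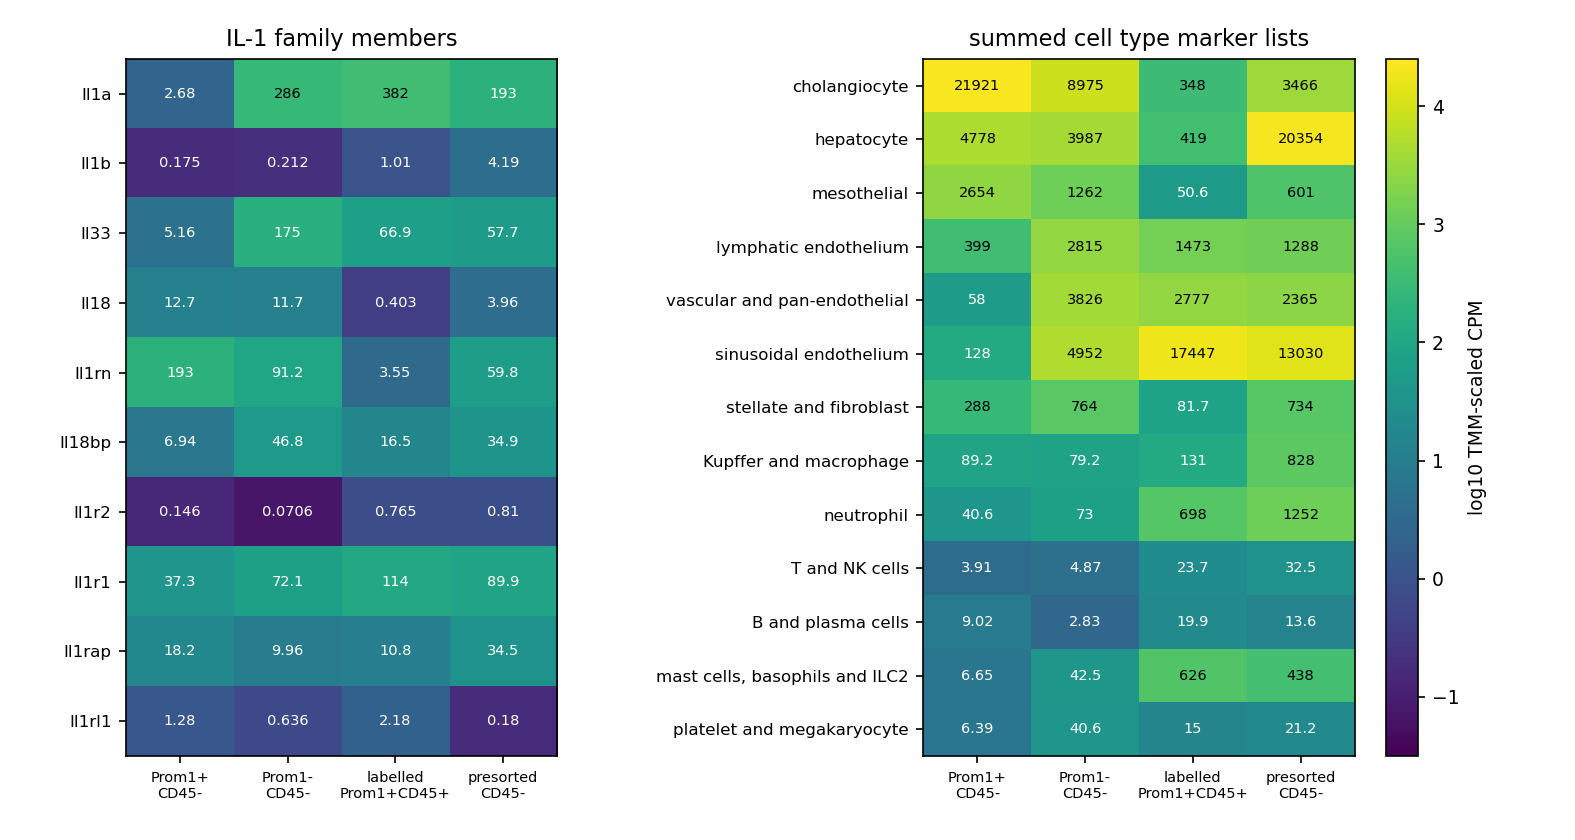
TMM-scaled CPM of the members (left) and summed levels of 13 cell type marker lists (right) in the 4 libraries, with colour on a log10 scale and the CPM printed in each cell. Il1rn and the cholangiocyte list are highest in the Prom1+CD49f+CD45- library. Il33 and the summed vascular and lymphatic endothelial lists are highest in the Prom1-CD49f+CD45- library. Single genes differ: Pecam1, Cdh5 and Eng of the vascular list and Flt4 of the lymphatic list are highest in the labelled library. Prox1 and Reln of the lymphatic list are highest in the Prom1+CD49f+CD45- library.

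Genes that process and release IL-1 family cytokines (inflammasome sensors, caspases, gasdermin D and proteases) were lower more often than higher in Prom1+CD49f+CD45- cells. Of 16 compared, 1 was called higher and 7 lower than in Prom1-CD49f+CD45- cells, where 15.5% of all genes were higher and 12.7% lower, and the median log2 ratio was -1.36, beside 0.39 over all genes. Against presorted cells 1 was higher and 9 lower (27.6% and 15.6% of all genes), with a median of -2.00 beside 0.19. Against the labelled library 0 were higher and 11 lower (12.5% and 13.1% of all genes). Casp1, the caspase that matures IL-1 beta and IL-18, was at 0.992 CPM in Prom1+CD49f+CD45- cells, 55.2 CPM in Prom1-CD49f+CD45- cells, 45.2 CPM in the labelled Prom1+CD49f+CD45+ library and 32.0 CPM in presorted cells. It was 55.7-fold lower in Prom1+CD49f+CD45- than in Prom1-CD49f+CD45- cells (39.5 to 81.0). Gsdmd, the pore-forming gasdermin D gene, was at 4.29 CPM in Prom1+CD49f+CD45- cells, 58.1 CPM in Prom1-CD49f+CD45- cells, 48.9 CPM in the labelled library and 37.6 CPM in presorted cells, and 13.6-fold lower in the same comparison (11.4 to 16.3). Casp8 was at 45.1 CPM in Prom1+CD49f+CD45- cells, 125 CPM in Prom1-CD49f+CD45- cells, 128 CPM in the labelled library and 116 CPM in presorted cells. Capn2, a calpain gene, was at 158 CPM in Prom1+CD49f+CD45- cells, 188 CPM in Prom1-CD49f+CD45- cells, 329 CPM in the labelled library and 317 CPM in presorted cells. Elane and Prtn3, neutrophil protease genes, had 2.60 and 1.05 CPM in Prom1+CD49f+CD45- cells, against 318 and 112 CPM in presorted cells. They moved with the neutrophil markers, whose part was not tested.

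Of 20 signalling genes below the receptors, 4 were called higher and 3 lower in Prom1+CD49f+CD45- than in Prom1-CD49f+CD45- cells, close to the shares over all genes (15.5% and 12.7%). Against presorted cells 0 were higher and 6 lower in Prom1+CD49f+CD45- cells (27.6% and 15.6% of all genes), and 0 higher and 7 lower in Prom1-CD49f+CD45- cells (9.77% and 14.1%). By mean CPM over the 4 libraries, not divided by length, the most abundant was Tollip, an adaptor that restrains the pathway. Tollip was at 73.4 CPM in Prom1+CD49f+CD45- cells, 66.2 CPM in Prom1-CD49f+CD45- cells, 160.3 CPM in the labelled library and 157 CPM in presorted cells. Mapk9 was above it in Prom1+CD49f+CD45- cells and Irak1 in Prom1-CD49f+CD45- cells. Irak1, a receptor-proximal kinase gene, was at 86.5 CPM in Prom1+CD49f+CD45- cells, 76.4 CPM in Prom1-CD49f+CD45- cells, 107 CPM in the labelled library and 114 CPM in presorted cells. The stress kinase genes Mapk14 and Mapk9 were at 94.3 and 95.7 CPM in Prom1+CD49f+CD45- cells, 51.3 and 65.8 CPM in Prom1-CD49f+CD45- cells, 92.7 and 92.1 CPM in the labelled library, and 131 and 109 CPM in presorted cells. Myd88, the receptor adaptor, was at 22.8 CPM in Prom1+CD49f+CD45- cells, 56.7 CPM in Prom1-CD49f+CD45- cells, 56.4 CPM in the labelled Prom1+CD49f+CD45+ library and 52.9 CPM in presorted cells, 2.48-fold lower in the first than in the second (2.25 to 2.74). Irak3, a kinase-like inhibitor of the pathway, was at 3.56 CPM in Prom1+CD49f+CD45- cells, 13.3 CPM in Prom1-CD49f+CD45- cells, 22.4 CPM in the labelled library and 19.8 CPM in presorted cells. Traf6, a ubiquitin ligase of the pathway, was 2.97-fold higher in Prom1+CD49f+CD45- than in Prom1-CD49f+CD45- cells (2.57 to 3.45), at 44.1 CPM in the first and 14.8 CPM in the second, and Tab3, Tab1 and Peli1 were 3.07-, 2.72- and 2.22-fold higher.

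Genes that IL-1 and other NF-kappaB signals induce were called higher in 8 of 21 and lower in 0 in Prom1-CD49f+CD45- over presorted cells (median log2 ratio 1.18, beside 0.12 over all genes), where 9.77% of all genes were higher and 14.1% lower. Prom1+CD49f+CD45- cells had 3 higher and 2 lower than presorted cells, below the shares over all genes (27.6% and 15.6%). Nfkbia, the inhibitor gene that NF-kappaB switches on, was at 346 CPM in Prom1+CD49f+CD45- cells, 956 CPM in Prom1-CD49f+CD45- cells, 400 CPM in the labelled Prom1+CD49f+CD45+ library and 306 CPM in presorted cells. Nfkbiz, a nuclear cofactor of NF-kappaB, was at 571 CPM in Prom1+CD49f+CD45- cells, 131 CPM in Prom1-CD49f+CD45- cells, 193 CPM in the labelled library and 39.5 CPM in presorted cells. Lcn2, an iron-binding acute phase gene, was at 785 CPM in Prom1+CD49f+CD45- cells, 797 CPM in Prom1-CD49f+CD45- cells, 28.3 CPM in the labelled library and 978 CPM in presorted cells, 34.6-fold lower in the labelled library than in presorted cells. Vcam1, a leukocyte adhesion gene, was at 192 CPM in Prom1+CD49f+CD45- cells, 313 CPM in Prom1-CD49f+CD45- cells, 274 CPM in the labelled library and 281 CPM in presorted cells and was called in no comparison. The chemokine gene Cxcl5 was at 19.99 CPM in Prom1+CD49f+CD45- cells, 27.2 CPM in Prom1-CD49f+CD45- cells, 0.765 CPM in the labelled library and 4.52 CPM in presorted cells. Cxcl1 was at 83.8 CPM in Prom1+CD49f+CD45- cells, 96.3 CPM in Prom1-CD49f+CD45- cells, 38.9 CPM in the labelled library and 25.1 CPM in presorted cells. Both were called higher in Prom1+CD49f+CD45- and Prom1-CD49f+CD45- cells than in the presorted mixture. Ccl2, a monocyte chemokine gene, was at 19.4 CPM in Prom1+CD49f+CD45- cells, 72.3 CPM in Prom1-CD49f+CD45- cells, 26.3 CPM in the labelled library and 15.1 CPM in presorted cells. Saa3, an acute phase gene, was at 0.817 CPM in Prom1+CD49f+CD45- cells, 136 CPM in Prom1-CD49f+CD45- cells, 0.846 CPM in the labelled library and 43.5 CPM in presorted cells.

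Among 9 other family members compared, the counts called higher and lower were 0 and 1 in Prom1+CD49f+CD45- over Prom1-CD49f+CD45- cells, 3 and 2 over presorted cells, and 4 and 0 in Prom1-CD49f+CD45- over presorted cells. The shares of all genes called higher and lower were 15.5% and 12.7% in the first comparison, 27.6% and 15.6% in the second, and 9.77% and 14.1% in the third. All 3 of the higher calls of Prom1+CD49f+CD45- over presorted cells were low genes: Il1f8 at 0.467 CPM (16 counts against 1) and Il1rapl2 at 0.642 CPM (22 counts against 1) lay below the chemosensory 95th percentile of 0.846 CPM, and Il1rapl1 is given below. The higher calls of Prom1-CD49f+CD45- over presorted cells were Il18r1, given below, and Il1f8 (7 counts against 1), Il1rapl2 (6 against 1) and Il1rapl1 (17 against 0). The last 3 were not above the chemosensory 99th percentile of 1.20 CPM in the Prom1-CD49f+CD45- library. In that comparison 20.4% of 445 chemosensory genes were called higher. Sigirr, a receptor gene that dampens IL-1 signalling, was at 49.2 CPM in Prom1+CD49f+CD45- cells, 57.4 CPM in Prom1-CD49f+CD45- cells, 30.4 CPM in the labelled Prom1+CD49f+CD45+ library and 32.9 CPM in presorted cells, called in no comparison. Il1f9, the gene of IL-36 gamma, was at 4.46 CPM in Prom1+CD49f+CD45- cells, 2.47 CPM in Prom1-CD49f+CD45- cells, 7.41 CPM in the labelled library and 2.30 CPM in presorted cells, and 3.23-fold higher in the labelled library than in presorted cells (2.52 to 4.15). Il18r1, the IL-18 receptor gene, was at 1.95 CPM in Prom1+CD49f+CD45- cells, 4.38 CPM in Prom1-CD49f+CD45- cells, 1.97 CPM in the labelled library and 1.28 CPM in presorted cells, and 3.41-fold higher in Prom1-CD49f+CD45- cells than in presorted cells (2.34 to 4.98). Il1rl2, the IL-36 receptor gene, had 0 counts in the Prom1+CD49f+CD45- library. Set at a floor of 3 counts there, it was 12.6-fold lower than in presorted cells, and the exact interval began at 9.86-fold. Its level was 0.777 CPM in Prom1-CD49f+CD45- cells, 1.05 CPM in the labelled library and 1.10 CPM in presorted cells. Il1rapl1, a receptor-like gene, had 0 counts in presorted cells. Its 2.28 CPM in the Prom1+CD49f+CD45- library was 33.7-fold higher against the same floor in the presorted library, and the exact interval began at 26.8-fold. This level was above the chemosensory 99th percentile of 1.43 CPM. Of 445 chemosensory genes compared, 84.7% were called higher in the same comparison, and the part of that background was not tested.

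**Figure D5:**
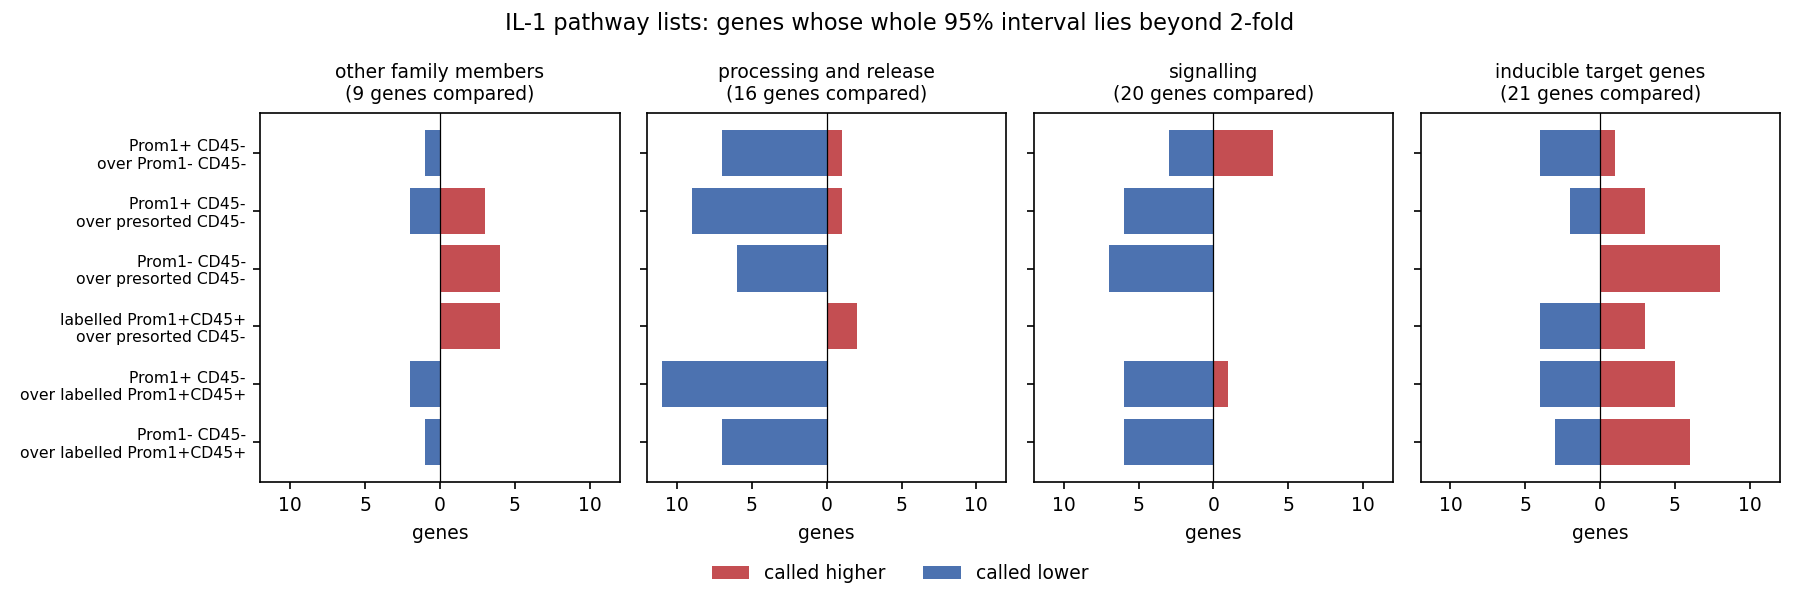
Genes of 4 IL-1 pathway lists whose whole 95% interval lies beyond 2-fold, counted to the right where higher and to the left where lower, in 6 comparisons. Processing and release genes are lower in 7 to 11 of 16 in the 3 comparisons of Prom1+CD49f+CD45- cells, and inducible targets are higher in 8 of 21 in Prom1-CD49f+CD45- over presorted cells.

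The genes most like each member over the 4 libraries were found by Euclidean distance between centred log2(CPM + 0.5) profiles, among 12837 genes with at least 100 counts in 1 library. Nearest to Il1a were Slc26a10 (0.36), Serpina3g (0.38) and Plpp1 (0.38), and nearest to Il33 were Phf11b (0.10), Gpx8 (0.27) and Tspan5 (0.39). For Il1rn they were Echdc2 (0.33), Clu (0.35) and Cldn3 (0.39), the last a duct epithelial tight junction gene. Those for Il18 were Gpm6a (0.29), Fam181b (0.32) and H2-Ab1 (0.36). Il18bp was nearest to Gsto1 (0.21), Trem2 (0.36) and Serpinb1a (0.40), and Il1b to Abcd2 (0.18), Acmsd (0.23) and Alox5 (0.29). Il1r1 was nearest to Vopp1 (0.11), Nsf (0.12) and Zfp382 (0.12), and Il1rap to Lonp1 (0.10), Lactb2 (0.14) and Hspa9 (0.16). Il1r2 and Il1rl1 had fewer than 100 counts in every library and were not searched. With 4 points a profile, such likeness is a description only.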

How the data were processed

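RNA of 4 liver cell populations, 1 library each, was analysed. Per the labels' protocols, libraries were polyA-selected and made with a stranded kit, with more amplification cycles at low input. The authors deposited estimated counts per gene, not normalized, and a table of CPM with 1 added. The submitters' processing notes name TopHat2, Partek 3 and mm10; annotation, settings and strand use are not known from the sources used here. The column named only CD45 was taken as presorted CD45-, the only population of the design text still without a column, and columns left unused numbered 0.

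Identifiers were matched to GENCODE vM21 (mm10) for 40254 of 41128 genes, and sequences are RefSeq's (GRCm38.p6), with a window for 10 of 10 members. Estimated counts were rounded and scaled by TMM in edgeR 4.0.16 (R 4.3.3) over genes with at least 10 counts in 1 library. Ratios, with Clopper-Pearson intervals, were computed over 21640 such genes with scipy 1.17.1, and calling was checked on simulated counts. A count of 0 was set against a floor of 3 counts, 0.0675 to 0.212 CPM by library. The alternatives were DESeq2 1.42.0 size factors, library totals, the authors' values, other count minimums and folds, and removal of the trend on transcript length. The members and lists were chosen with earlier results of these data known. Named genes are the members, the genes of the sorted proteins, the 4 genes of each pathway list with the highest mean CPM with those showing its directions, and the 3 nearest profiles. Casp1, Gsdmd, Myd88, Irak3, Saa3 and the chemokine genes were picked after their values were seen.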

Additional observations from a re-analysis of the deposited data

How the results depend on the processing

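Of 32 member calls over the 6 comparisons, 31 remained with DESeq2 size factors and 29 with library totals. With the authors' values 28 remained, and 29 with the length trend removed. With a minimum of 50 counts 31 remained (Il1r2 was then not compared). No call changed direction. All 32 remained with intervals beyond 1.5-fold or 1-fold and with a minimum of 1 count. These settings are no check on the calls. An interval beyond 2-fold also lies beyond the smaller folds, and a minimum of 1 count leaves out no member. Over the 6 comparisons DESeq2 size factors shifted the median log2 ratio of all genes by -0.17 to 0.21, and library totals by -0.16 to 0.42. Counts of members that moved by over 1.5 times were these. Called higher in Prom1+CD49f+CD45- over Prom1-CD49f+CD45- cells, 0 became 1 with library totals and 2 at 1.5-fold and at 1-fold. Called higher in Prom1-CD49f+CD45- over presorted cells, 2 became 6 at 1-fold and 1 with the length trend removed, and called lower, 2 became 4 at 1-fold. Called higher in the library labelled Prom1+CD49f+CD45+ over presorted cells, 1 became 2 with library totals, the authors' values, 1.5-fold and the length trend removed, and 4 at 1-fold. Called lower in Prom1-CD49f+CD45- cells over the labelled library, 0 became 2 at 1.5-fold, 5 at 1-fold and 1 with the length trend removed. The fold thresholds change these counts by construction, and the 1 added to the authors' values draws ratios of low genes towards 1; for the other settings the cause was not tested.

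Per kb of exon, Il1rn to Il1a plus Il1b was 24.0 in Prom1+CD49f+CD45- cells, 0.113 in Prom1-CD49f+CD45- cells, 0.00330 in the labelled library and 0.108 in presorted cells. Il18bp to Il18 was 0.187 in Prom1+CD49f+CD45- cells, 1.37 in Prom1-CD49f+CD45- cells, 13.9 in the labelled library and 3.001 in presorted cells. Il33 to Il1rl1 was 9.61 in Prom1+CD49f+CD45- cells, 659 in Prom1-CD49f+CD45- cells, 73.4 in the labelled library and 766 in presorted cells. Il1r2 to Il1r1 was 0.0130 in Prom1+CD49f+CD45- cells, 0.0224 in the labelled library and 0.0300 in presorted cells. These ratios move because the exon lengths differ, and stayed on the same side of 1. Levels of Il1b, Il1r2 and Il1rl1 are limited by counts. No paired analysis was possible because each group has 1 library, and for the same reason no library could be left out.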

Other observations

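Some leukocyte genes did not follow the rest of their lists. Csf1r, the receptor gene of a macrophage growth factor, was at 79.1 CPM in Prom1+CD49f+CD45- cells, 16.9 CPM in Prom1-CD49f+CD45- cells, 16.6 CPM in the labelled Prom1+CD49f+CD45+ library and 99.9 CPM in presorted cells. Cd68, Adgre1 and Marco of the same macrophage list were at 1.43, 0.788 and 0.613 CPM in the Prom1+CD49f+CD45- library, against 26.8, 53.3 and 58.5 CPM in the presorted library. Cxcr2, a receptor gene for chemokines such as those of Cxcl1 and Cxcl5, was at 29.3 CPM in Prom1+CD49f+CD45- cells, 6.29 CPM in Prom1-CD49f+CD45- cells, 44.2 CPM in the labelled library and 2.21 CPM in presorted cells. The neutrophil gene S100a8 was at 0.0875 CPM in the Prom1+CD49f+CD45- library and 80.3 CPM in the presorted library.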
